A study of Mus musculus with 6 samples.

Results

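Activating transcription factor 4 (ATF4) is the main transcription factor of the integrated stress response, and the genes described here are Atf4 itself and 9 genes that it is known to induce when amino acids run short or the endoplasmic reticulum is stressed. They were chosen by name, as the entries Atf4, Ddit3, Chac1, Trib3, Asns, Sesn2, Psat1, Phgdh, Slc7a11 and Slc3a2 of the deposited gene table, so 10 of its 23415 genes. All 10 were listed, and 7 of them were among the 11515 genes that the authors tested. The other 3, Psat1, Phgdh and Slc7a11, carry the mark for too few alignments to test.

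The samples are RNA libraries from liver of C57BL/6 mice, 3 from alkaline sphingomyelinase (Enpp7) knockout animals (numbers 82, 84 and 85) and 3 from wildtype animals (numbers 81, 83 and 90), and the comparison asks which liver transcripts differ when the enzyme is missing. The genotype was read from the letter K or W that opens each sample name. The kind of Enpp7 allele, and the age, sex, diet and any treatment of the mice, are not given in the sources used here. The tissue label says liver and the design text speaks of intestine. The deposited table holds 1 expression value per group, so no spread between mice could be measured, and every value below is the authors' FPKM (fragment counts divided by transcript length and by library size) for 3 pooled libraries.

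When amino acids are scarce or unfolded proteins build up, kinases phosphorylate the initiation factor eIF2, general translation slows, and the messenger RNA of Atf4 is translated more because of short upstream reading frames. ATF4 protein therefore can change with little change of Atf4 RNA, and RNA levels of its targets are the usual readout. ATF4 binds composite sites in which a C/EBP part and an ATF part are joined, often together with a C/EBP family partner. Its targets supply amino acids (asparagine and serine synthesis, cystine uptake), restrain growth signalling, and with lasting stress act on glutathione and cell survival.

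The promoter sequences are shown for the member that differed between the groups (Chac1) and for other members, so that level and sequence can be read side by side. Those others are the members whose window holds the letters of the composite site, or these letters with 1 set base left free (TGATGNAA). Besides TGACGCAA, no other variant with 1 base changed was searched. The letters TGATGCAA are the core of that site. Capitals mark these letters, on either strand, in Chac1 (the second capital run) and Slc7a11, and variants of them in Asns (TGATGAAA), in Trib3 (TTACATCA, read on the opposite strand) and at the start of the Chac1 run (TGACGCAA). The runs give the 250 bases before the annotated start of transcription, 5′ to 3′ on the strand of the gene, from RefSeq on GRCm38.p6 (the assembly called mm10). For Trib3 the match lies past the start, and 24 bases around it are given.
Chac1 (chr2:119350992-119351241, plus strand): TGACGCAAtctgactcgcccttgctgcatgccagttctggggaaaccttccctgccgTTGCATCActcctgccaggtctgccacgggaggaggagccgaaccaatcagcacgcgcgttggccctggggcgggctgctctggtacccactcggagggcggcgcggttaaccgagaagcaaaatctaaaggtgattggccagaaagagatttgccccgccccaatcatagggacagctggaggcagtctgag
Slc7a11 (chr3:50443614-50443863, minus strand): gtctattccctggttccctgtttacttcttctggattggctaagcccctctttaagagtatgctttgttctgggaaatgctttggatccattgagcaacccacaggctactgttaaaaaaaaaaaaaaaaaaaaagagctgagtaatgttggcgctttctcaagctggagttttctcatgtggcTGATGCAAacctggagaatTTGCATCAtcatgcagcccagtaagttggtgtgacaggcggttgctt
Asns (chr6:7693210-7693459, minus strand): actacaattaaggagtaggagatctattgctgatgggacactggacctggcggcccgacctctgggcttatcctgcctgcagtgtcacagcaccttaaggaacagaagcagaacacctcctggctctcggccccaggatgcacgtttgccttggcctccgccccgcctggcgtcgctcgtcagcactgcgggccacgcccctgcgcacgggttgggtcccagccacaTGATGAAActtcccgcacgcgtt
Trib3 (chr2:152344031-152344054, minus strand): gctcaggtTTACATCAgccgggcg

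Of the 11 windows that RefSeq gives for the 10 members (2 for Psat1, and 1 for each other member), each running from 250 bases before the start to 50 after it, 2 held TGATGCAA on either strand. They were that of Chac1, with 1 match from 193 to 186 bases before the start, and that of Slc7a11, with 1 match from 66 to 59 and 1 from 47 to 40 bases before it. Among all 32851 promoter windows of the same length, 0.895% held these letters. With 1 base left free (TGATGNAA, which takes in every TGATGCAA) 3.97% of all windows and 4 of the member windows matched. The additional ones were that of Asns, 23 to 16 bases before the start, where the letters are TGATGAAA, and that of Trib3, 14 to 21 bases after it. The Chac1 window also opens with TGACGCAA, 250 to 243 bases before the start, a variant that 0.49% of all windows held and that was searched only after this window had been seen. The palindromic CRE letters TGACGTCA were in 1.79% of all windows and in 0 of the member windows. These matches are letters and not measured binding, and a window without them says nothing on sites further away.

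**Figure D1:**
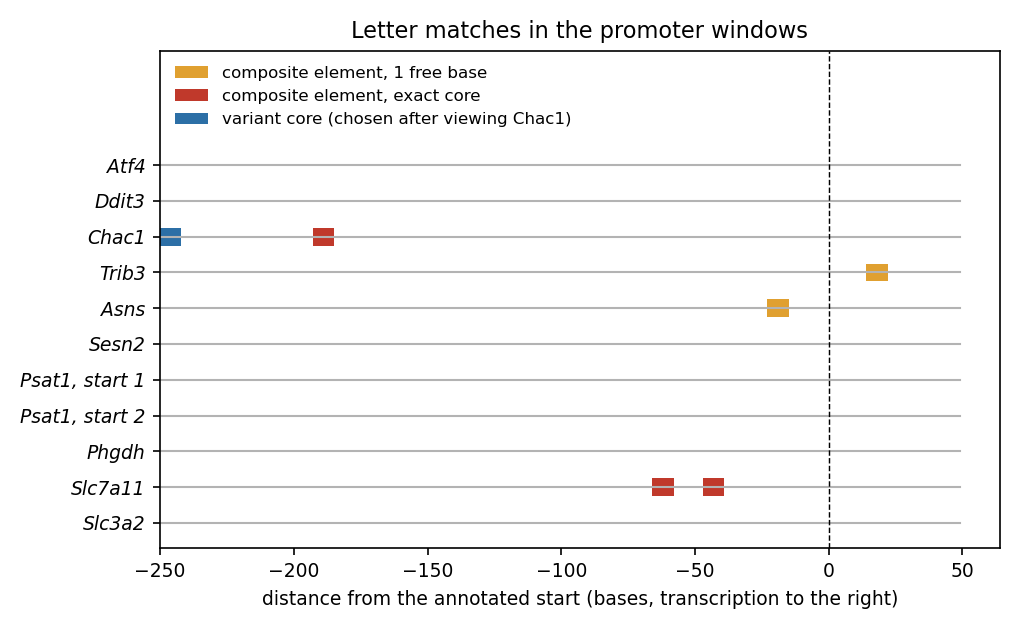
Letter matches in the 11 promoter windows of the 10 members, drawn by their distance in bases from the annotated start (dashed line). Red boxes mark TGATGCAA, orange boxes the same core with 1 free base, and the blue box TGACGCAA; the red boxes lie in the windows of Chac1 and Slc7a11.

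Chac1, which encodes a glutathione-specific gamma-glutamylcyclotransferase that degrades glutathione and is induced by ATF4, stood at 6.21 FPKM in knockout livers and 1.85 FPKM in wildtype livers. Ddit3, Asns, Trib3, Sesn2, Atf4 and Slc3a2 did not pass the authors' test in either direction. Psat1, Phgdh and Slc7a11 were under 1 FPKM in both groups. Of the 7 tested members 1 rose, 0 fell and 6 did not pass, where rose and fell are used of genes whose q-value in the authors' deposited table lies under 0.05. Over all tested genes 1.08% passed, 0.573% having risen and 0.504% having fallen (66 and 58 genes, or 49 and 140 with FPKM totals of the groups made equal). At an unadjusted p under 0.05 the authors' test likewise held 1 member higher and 0 lower, while 2.82% and 2.47% of all tested genes passed that mark in those directions.

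**Figure D2:**
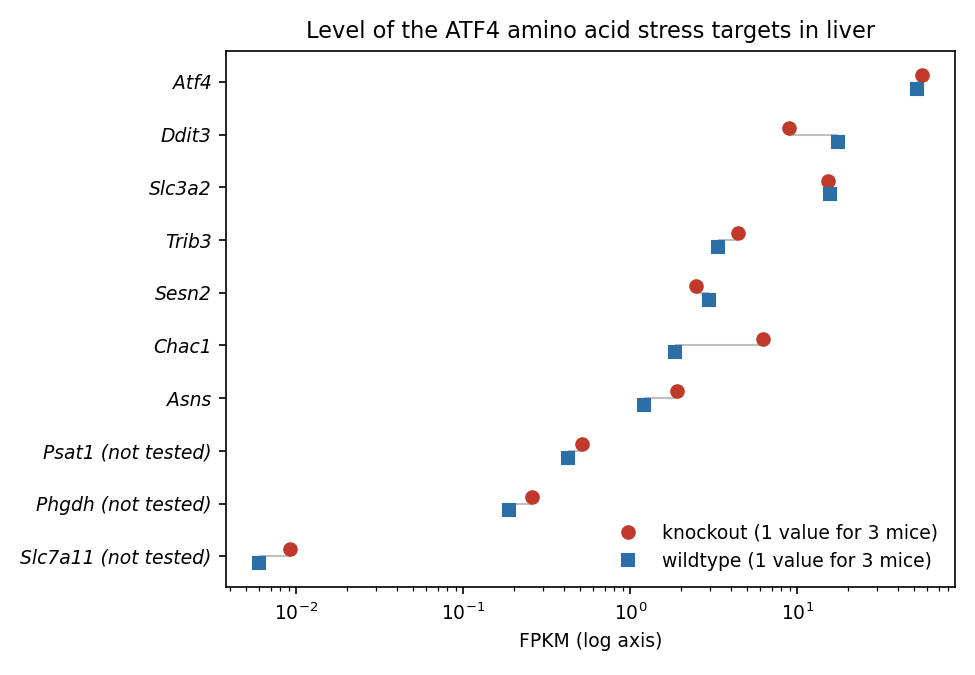
FPKM of the 10 members on a log axis, ordered by their wildtype level, with circles for the knockout group and squares for the wildtype group; each point is 1 deposited value for 3 mice and carries no error. The circle lies well to the right of the square for Chac1 and to the left for Ddit3. The gaps are smaller for Asns, Trib3 and Sesn2, and the points of Atf4 and Slc3a2 nearly coincide. Those of Psat1, Phgdh and Slc7a11 lie under 1 FPKM in both groups.

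The levels spanned a wide range, and FPKM, being scaled for length, can be set side by side between genes. In the knockout group the order from high to low was Atf4, Slc3a2, Ddit3, Chac1, Trib3, Sesn2, Asns, Psat1, Phgdh and Slc7a11. In the wildtype group Ddit3 came second and Chac1 sixth, with the remaining genes in the same sequence. With no value per mouse, which neighbours in these orders differ beyond their spread cannot be said. Atf4 held 58.2% of the summed FPKM of the 10 members in knockout livers and 54.7% in wildtype livers, and the sums themselves were 95.3 FPKM in knockout livers and 95.5 FPKM in wildtype livers.

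None of the transcription factors and their feedback inhibitor passed the test. Atf4 (chromosome 15, 80255184 to 80257541, mm10) stood at 55.5 FPKM in knockout livers and 52.2 FPKM in wildtype livers, above 88.6% of the tested genes in knockout livers and 88.0% in wildtype livers. Its log2 ratio of knockout over wildtype was 0.09 ± 0.22 (the standard error that the authors' statistic implies, here and below), with a 95% interval from -0.35 to 0.52. That interval corresponds to folds from 0.784 to 1.44. With FPKM totals of the groups made equal the ratio was -0.11, so its sign depends on the scaling.

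Ddit3 encodes CHOP, a C/EBP-related factor that ATF4 induces and that promotes cell death when stress lasts. It was at 8.87 FPKM in knockout livers and 17.6 FPKM in wildtype livers, or 50.4% of the wildtype level. The log2 ratio of -0.99 ± 0.65 did not pass (q = 0.999804 in the authors' deposited table), and its 95% interval ran from -2.26 to 0.28. Only 80 tested genes had a ratio at or below that of Ddit3, Ddit3 among them. Its standard error was large for its level, since 2.45% of the tested genes with at least 5 FPKM in either group had an error of that size or more.

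The table places Ddit3 (chromosome 10, 127290793 to 127311786) under the same locus as Mars, the methionyl-tRNA synthetase gene on the opposite strand. In the GENCODE M21 annotation 68 of the 890 exonic bases of Ddit3 are also exonic in Mars, or 7.64%. Whether the libraries were stranded is not stated in the labels, so reads from those bases cannot be told apart. Mars itself was at 23.8 FPKM in knockout livers and 23.1 FPKM in wildtype livers, with a log2 ratio of 0.04 ± 0.27.

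Trib3, a pseudokinase that ATF4 and CHOP induce and that in turn inhibits ATF4 activity and AKT signalling, was at 4.40 FPKM in knockout livers and 3.34 FPKM in wildtype livers. The log2 ratio was 0.40 ± 0.32, its 95% interval ran from -0.22 to 1.02, and the gene did not pass (q = 0.999804 in the authors' deposited table). It lies on chromosome 2 at 152337425 to 152344060. Its relative Trib1, which directs C/EBP-alpha to degradation, did not pass, at 10.4 FPKM in knockout livers and 14.0 FPKM in wildtype livers. Trib2, named although it lies under 1 FPKM, was not tested, at 0.307 FPKM in knockout livers and 0.595 FPKM in wildtype livers.

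Chac1 was the member that passed. Its log2 ratio was 1.75 ± 0.37, with a 95% interval from 1.02 to 2.47 and q = 0.00052103 in the authors' deposited table. On the linear scale that is 3.35-fold, with an interval from 2.03 to 5.54. The gene lies on chromosome 2 at 119351242 to 119354327, is coded on the plus strand in 3 exons, and has the composite letters shown above in its promoter window. Chac1 lay above 49.1% of the tested genes in knockout livers and above 21.2% in wildtype livers. In size it was number 28 of the 66 genes that rose, and 56 tested genes had a ratio at least as large, itself included. It passed with the group totals made equal (log2 ratio 1.55, q = 0.00346) and after quantile normalization (1.73, q = 0.000638).

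Chac2, the constitutive relative of Chac1 with the same enzyme activity, was at 14.8 FPKM in knockout livers and 14.0 FPKM in wildtype livers (log2 ratio 0.08 ± 0.29, turning to -0.11 with the group totals made equal). Its level lay above that of Chac1 in both groups.

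In the same comparison as Chac1, the calls among cell type markers were in the neutrophil and monocyte, macrophage and cholangiocyte lists only. Of 12 tested neutrophil and monocyte markers 5 rose and 0 fell, and the 13 listed genes summed to 765 FPKM in knockout livers and 19.0 FPKM in wildtype livers. The 5 were S100a8, S100a9, Ngp, Ltf and Lcn2, and most of the sum was Lcn2, which hepatocytes make too. Of the 12 ratios 11 were above 0 and 1 below, and 9 genes were higher at an unadjusted p under 0.05 in the authors' test. Of 14 Kupffer cell and macrophage markers 2 rose, Marco and C1qa, and the sums were 599 FPKM in knockout livers and 387 FPKM in wildtype livers. All 14 ratios were above 0, with a median log2 ratio of 0.49, and 9 genes were higher at an unadjusted p under 0.05 in the authors' test. With the group totals made equal 0 of the 14 passed, and after quantile normalization 1 did. Some of the 14 ratios turned below 0 with the totals made equal, being smaller than that shift (-0.19). Of 7 tested cholangiocyte markers 1 rose, all 7 ratios were above 0, and the 10 listed genes summed to 159 FPKM in knockout livers and 77.0 FPKM in wildtype livers. The called gene was Spp1 (osteopontin), which other cells make too, at 142 FPKM in knockout livers and 62.6 FPKM in wildtype livers. Spp1 made up most of both sums, and some of the other cholangiocyte ratios likewise turned below 0 with the totals made equal.

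Of 12 stellate cell and fibroblast markers 0 passed, 10 ratios were below 0 and 3 genes were lower at an unadjusted p under 0.05. Their sums were 129 FPKM in knockout livers and 159 FPKM in wildtype livers. The smallest p values were those of Reln and Lrat, and Reln passed as lower with the group totals made equal (q = 0.0174). Of 12 sinusoidal endothelium markers, led in p by Ehd3 and Stab2, 0 passed, 10 ratios were below 0 and 1 was lower at an unadjusted p under 0.05. Their sums were 149.8 FPKM in knockout livers and 159.7 FPKM in wildtype livers.

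The design text names intestine. Of the 15 intestinal epithelium markers 8 were tested and 0 passed, with 6 ratios above 0, a median log2 ratio of 0.67 and 2 genes higher at an unadjusted p under 0.05, Tff3 (1.03 ± 0.31, with a q of 0.0775 in the authors' deposited table) and Reg3b (1.41 ± 0.64). The 15 summed to 105 FPKM in knockout livers and 88.9 FPKM in wildtype livers. Tff3 and Fabp2 made up most of both sums. Tff3 was at 48.8 FPKM in knockout livers and 23.9 FPKM in wildtype livers. Fabp2 was at 42.9 FPKM in knockout livers and 54.7 FPKM in wildtype livers (log2 ratio -0.35 ± 0.23). Vil1, Lct, Sis, Cdx1, Cdx2, Muc2, Guca2a, Krt20 and Alpi were under 1 FPKM in both groups. Fabp2 and these last genes were named after their values were seen. The 14 hepatocyte markers summed to 45836 FPKM in knockout livers and 37601 FPKM in wildtype livers with 0 called, and the fibrinogen chains Fgb and Fga were higher at an unadjusted p under 0.05. Of 4 tested lymphocyte markers (led in p by Il2rb and Cd79b) and 5 of cell division (led by Pcna and Cdk1), 0 passed and 0 had an unadjusted p under 0.05 in the authors' test.

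No gene of these marker lists was at 0 in either group. The part of these cells in the Chac1 difference was not tested, and in whole liver a change in the number of cells of a type cannot be told apart from a change in RNA per cell. Enpp7, the targeted gene, was near the floor in both groups, at 0.141 FPKM in knockout livers and 0.0541 FPKM in wildtype livers, so it does not check the genotype labels.

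The cystine exchanger was represented almost wholly by its heavy chain. Slc3a2, the CD98 heavy chain that carries several amino acid exchangers to the membrane, was at 15.2 FPKM in knockout livers and 15.7 FPKM in wildtype livers. Its log2 ratio was -0.04 ± 0.24 with a 95% interval from -0.51 to 0.43, the second narrowest of the members after Atf4. Slc7a11, the light chain xCT that takes up cystine in exchange for glutamate, was at 0.00912 FPKM in knockout livers and 0.00599 FPKM in wildtype livers. At that level no ratio can be read: the 95% interval of its log2 ratio ran from -3.68 to 4.89. Its promoter window holds the composite letters on both strands, while its listed level was the lowest of the 10 members in both groups.

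The genes of serine and asparagine synthesis were low in these livers. Asns, asparagine synthetase, was at 1.89 FPKM in knockout livers and 1.21 FPKM in wildtype livers. The log2 ratio of 0.65 ± 0.44 did not pass (q = 0.999804 in the authors' deposited table), and the interval from -0.21 to 1.51 takes in both no difference and a fold of 2.84. Phgdh, which catalyses the first step of serine synthesis from 3-phosphoglycerate, was at 0.258 FPKM in knockout livers and 0.188 FPKM in wildtype livers. Psat1, the aminotransferase of the next step, was at 0.513 FPKM in knockout livers and 0.424 FPKM in wildtype livers. Neither was tested, and their log2 ratios of 0.46 ± 0.83 and 0.27 ± 0.61 are smaller than their errors. Psph, the phosphatase that completes serine synthesis, was tested, at 3.93 FPKM in knockout livers and 3.10 FPKM in wildtype livers (log2 ratio 0.34 ± 0.35), and was named here after its values were seen.

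Sesn2, a leucine-sensing protein that restrains the growth kinase complex mTORC1, was at 2.46 FPKM in knockout livers and 2.94 FPKM in wildtype livers (log2 ratio -0.26 ± 0.32, 95% interval -0.89 to 0.37). Its relatives did not pass either. Sesn1, a p53 target, was at 4.80 FPKM in knockout livers and 3.94 FPKM in wildtype livers, and Sesn3, a FoxO target, at 2.51 FPKM in knockout livers and 2.80 FPKM in wildtype livers. Sesn2 lies on chromosome 4 at 132492807 to 132510456.

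**Figure D3:**
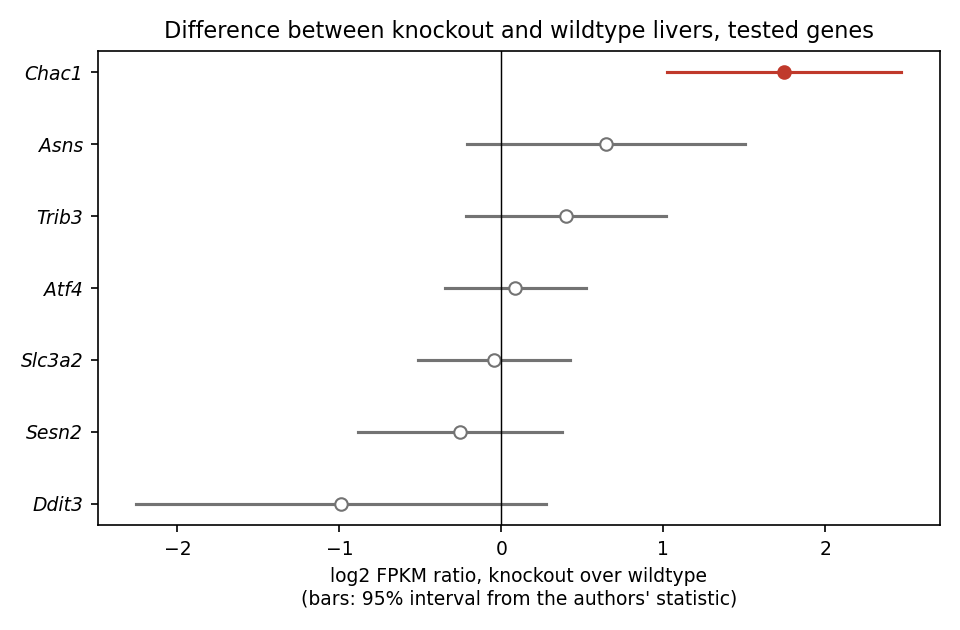
Log2 FPKM ratio of knockout over wildtype for the 7 tested members, with the 95% interval that the authors' statistic implies. The interval of Chac1 (filled) lies above 0, and the intervals of the other 6 (open) hold 0, that of Ddit3 being the widest.

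The median log2 ratio of the 7 tested members was 0.09, beside -0.0012 over all tested genes. With the group totals made equal these medians were -0.11 and -0.20, since that scaling lowers every ratio by the same amount. Of the 7 ratios 4 were above 0 and 3 below, and 49.9% of all tested genes had a ratio above 0. The median absolute log2 ratio was 0.40 for the tested members and 0.17 for all tested genes, whose levels differ.

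**Figure D4:**
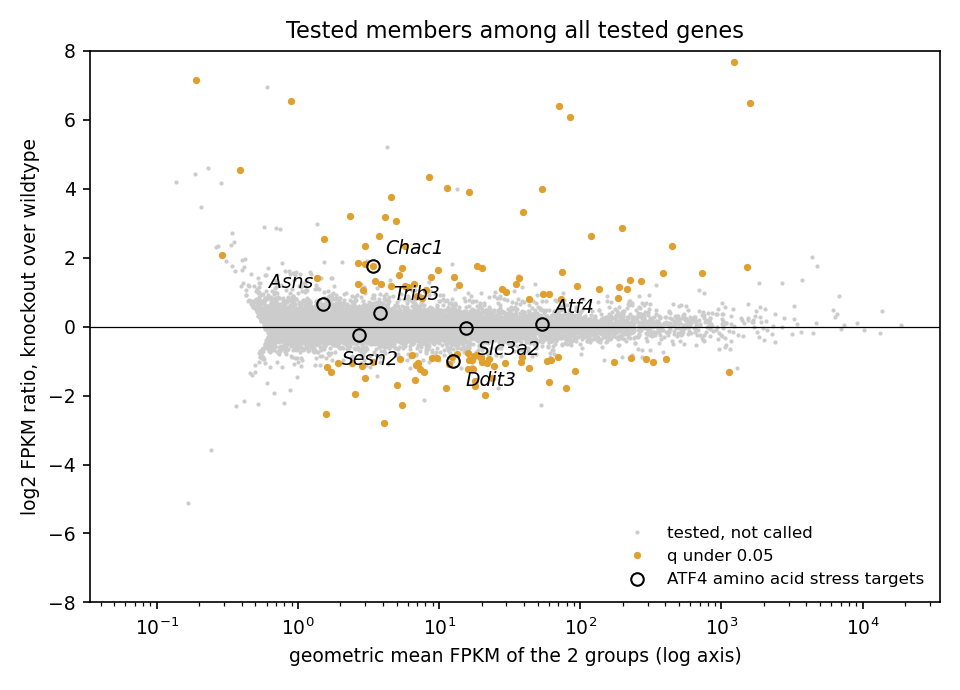
Log2 FPKM ratio of knockout over wildtype against the geometric mean FPKM of both groups (log axis) for the 11456 tested genes with a value above 0 in both, with the 7 tested members ringed and genes with q under 0.05 in orange. Chac1 lies among the orange points, Ddit3 lies at the level of called genes with smaller errors, and the remaining 5 lie within the grey band.

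Upstream of ATF4, the kinases and factors that control eIF2 held no call. Of 18 tested genes of this list 0 rose, 0 fell, and 1 had an unadjusted p under 0.05 in the authors' test. It was Ppp1r15b, the constitutive subunit that directs the phosphatase to eIF2, at 18.1 FPKM in knockout livers and 24.6 FPKM in wildtype livers (log2 ratio -0.44 ± 0.22, with a q of 0.896 in the authors' deposited table). Its stress-inducible counterpart Ppp1r15a (GADD34), itself an ATF4 target and named after its values were seen, was at 4.75 FPKM in knockout livers and 5.60 FPKM in wildtype livers. The gene next in p was Eif2b2, a subunit of the exchange factor eIF2B, at 16.8 FPKM in knockout livers and 14.4 FPKM in wildtype livers. The median log2 ratio of the list was -0.07.

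Among 17 tested partner and related bZIP factors none passed and 1 had an unadjusted p under 0.05 in the authors' test. Atf5, the closest relative of ATF4 and a factor abundant in hepatocytes, was at 212 FPKM in knockout livers and 114 FPKM in wildtype livers (log2 ratio 0.89 ± 0.28, with a q of 0.0946 in the authors' deposited table). That q lies under 0.1, but it was 0.303 with the group totals made equal and 0.138 after quantile normalization. Atf5 was the more abundant of the pair, at 3.81 times the FPKM of Atf4 in knockout livers and 2.18 times in wildtype livers. Nfe2l2 (NRF2), which controls antioxidant genes, was at 18.2 FPKM in knockout livers and 23.1 FPKM in wildtype livers. Cebpb, a dimer partner of ATF4 named after its values were seen, was at 241 FPKM in knockout livers and 233 FPKM in wildtype livers.

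Other genes reported to be ATF4 targets held no call. Of the 49 listed, 37 were tested, 0 rose, 0 fell, and at an unadjusted p under 0.05 the authors' test held 4 higher and 3 lower; over all tested genes 5.29% passed that mark in either direction. The median log2 ratio was 0.04. Herpud1, a protein of endoplasmic reticulum-associated degradation, was at 202 FPKM in knockout livers and 369 FPKM in wildtype livers (log2 ratio -0.87 ± 0.25, with a q of 0.0569 in the authors' deposited table). It passed as lower with the group totals made equal (q = 0.00364) and after quantile normalization (q = 0.0211).

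The 4 at the higher side were Atf5, Bbc3, Slc1a4 and Gdf15, of which Bbc3 and Gdf15 were named after their values were seen. Bbc3 (PUMA), a pro-apoptotic protein, had a log2 ratio of 0.95 ± 0.31. Gdf15, a stress-induced secreted factor, was at 7.46 FPKM in knockout livers and 3.87 FPKM in wildtype livers. Slc1a4, a carrier of alanine, serine and cysteine, was at 1.65 FPKM in knockout livers and 0.786 FPKM in wildtype livers (log2 ratio 1.07 ± 0.37, with a q of 0.201 in the authors' deposited table). With a pseudocount of 1 that ratio was 0.57.

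Aminoacyl-tRNA synthetases, which charge transfer RNAs and of which ATF4 induces many of the cytosolic ones, held no call. Of 23 tested cytosolic genes 0 passed and 0 had an unadjusted p under 0.05 in the authors' test. Their log2 ratios ran from -0.29 to 0.31 with a median of -0.01. The 23 include Aimp1, Aimp2 and Eef1e1, members of the synthetase complex that charge no transfer RNA, named after their values were seen. The lowest ratios were those of Eef1e1 and Aimp2. The smallest p values were those of Lars, at 10.5 FPKM in knockout livers and 8.52 FPKM in wildtype livers, and Sars, at 20.7 FPKM in knockout livers and 17.1 FPKM in wildtype livers. Of the 17 mitochondrial synthetases, which serve as a neighbouring group, 0 passed and 0 had an unadjusted p under 0.05, with a median of 0.01. Lars2 was at 241 FPKM in knockout livers and 197 FPKM in wildtype livers, and Mars2 at 0.713 FPKM in knockout livers and 0.928 FPKM in wildtype livers.

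Of 27 tested amino acid transporters 1 rose, 0 fell and 26 did not pass. Slc3a1, the heavy chain of the cystine and dibasic amino acid exchanger and the relative of Slc3a2, rose to 41.7 FPKM in knockout livers, against 21.0 FPKM in wildtype livers (log2 ratio 0.99 ± 0.26, with a q of 0.0214 in the authors' deposited table). With the group totals made equal it no longer passed (log2 ratio 0.80, q = 0.117). Slc3a1 stood at 2.74 times the FPKM of Slc3a2 in knockout livers and 1.34 times in wildtype livers. Slc7a9, the light chain known to pair with Slc3a1 in kidney and intestine, is named although it lies under 1 FPKM and was not tested, at 0.0916 FPKM in knockout livers and 0.0587 FPKM in wildtype livers. Slc38a2, an amino acid-regulated neutral carrier and ATF4 target named after its values were seen, was at 30.7 FPKM in knockout livers and 40.7 FPKM in wildtype livers.

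The light chains that share the Slc3a2 heavy chain were low. Slc7a5 (LAT1), which takes up large neutral amino acids, was at 1.27 FPKM in knockout livers and 1.10 FPKM in wildtype livers. Slc7a7, which exports dibasic amino acids, was at 2.85 FPKM in knockout livers and 2.32 FPKM in wildtype livers. Slc7a8 (LAT2), a carrier of neutral amino acids, was at 1.71 FPKM in knockout livers and 1.24 FPKM in wildtype livers. None of these 3 passed, and their log2 ratios of 0.20 ± 0.37, 0.30 ± 0.83 and 0.46 ± 0.34 lay above 0; that of Slc7a5 sits at the size of the shift by which making the totals equal lowers all ratios (-0.19). Slc7a6 and Slc7a10, named to complete the family, were not tested and lay under 1 FPKM.

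The serine, glycine and folate one-carbon enzymes held no call among 25 tested, and 0 had an unadjusted p under 0.05 in the authors' test. Agxt, the liver alanine-glyoxylate aminotransferase, was at 213 FPKM in knockout livers and 166 FPKM in wildtype livers, and Amt, of the glycine cleavage system, at 24.9 FPKM in knockout livers and 19.6 FPKM in wildtype livers. Of the genes of this pathway that ATF4 induces, named after their values were seen, Shmt2, the mitochondrial serine hydroxymethyltransferase, was at 95.5 FPKM in knockout livers and 109.9 FPKM in wildtype livers. Mthfd2, a mitochondrial folate enzyme, was at 1.07 FPKM in knockout livers and 0.721 FPKM in wildtype livers. Of 18 tested enzymes of asparagine, aspartate, glutamine and proline metabolism 0 passed. Gpt2, a mitochondrial alanine aminotransferase and ATF4 target, had an unadjusted p under 0.05, at 115 FPKM in knockout livers and 175 FPKM in wildtype livers (log2 ratio -0.60 ± 0.25, with a q of 0.540 in the authors' deposited table). Got1, an aspartate aminotransferase, was at 102 FPKM in knockout livers and 128 FPKM in wildtype livers. Asnsd1, named for its likeness to asparagine synthetase, was at 15.1 FPKM in knockout livers and 14.7 FPKM in wildtype livers (log2 ratio 0.05 ± 0.24, turning to -0.15 with the group totals made equal).

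The other enzymes of cysteine and glutathione metabolism held no call among 24 tested, with a median log2 ratio of 0.01. Gclc, the catalytic subunit of the enzyme that limits glutathione synthesis, had an unadjusted p under 0.05, at 76.8 FPKM in knockout livers and 56.0 FPKM in wildtype livers (log2 ratio 0.45 ± 0.23, with a q of 0.937 in the authors' deposited table). Cbs, which opens the route from homocysteine to cysteine, was at 239 FPKM in knockout livers and 174 FPKM in wildtype livers. Among 33 tested genes of sestrin and mTORC1 nutrient sensing 0 passed, and 1 higher and 1 lower gene had an unadjusted p under 0.05. They were Flcn, folliculin, at 16.0 FPKM in knockout livers and 10.4 FPKM in wildtype livers, and Ddit4, an mTORC1 inhibitor and ATF4 target, at 6.07 FPKM in knockout livers and 9.14 FPKM in wildtype livers.

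**Figure D5:**
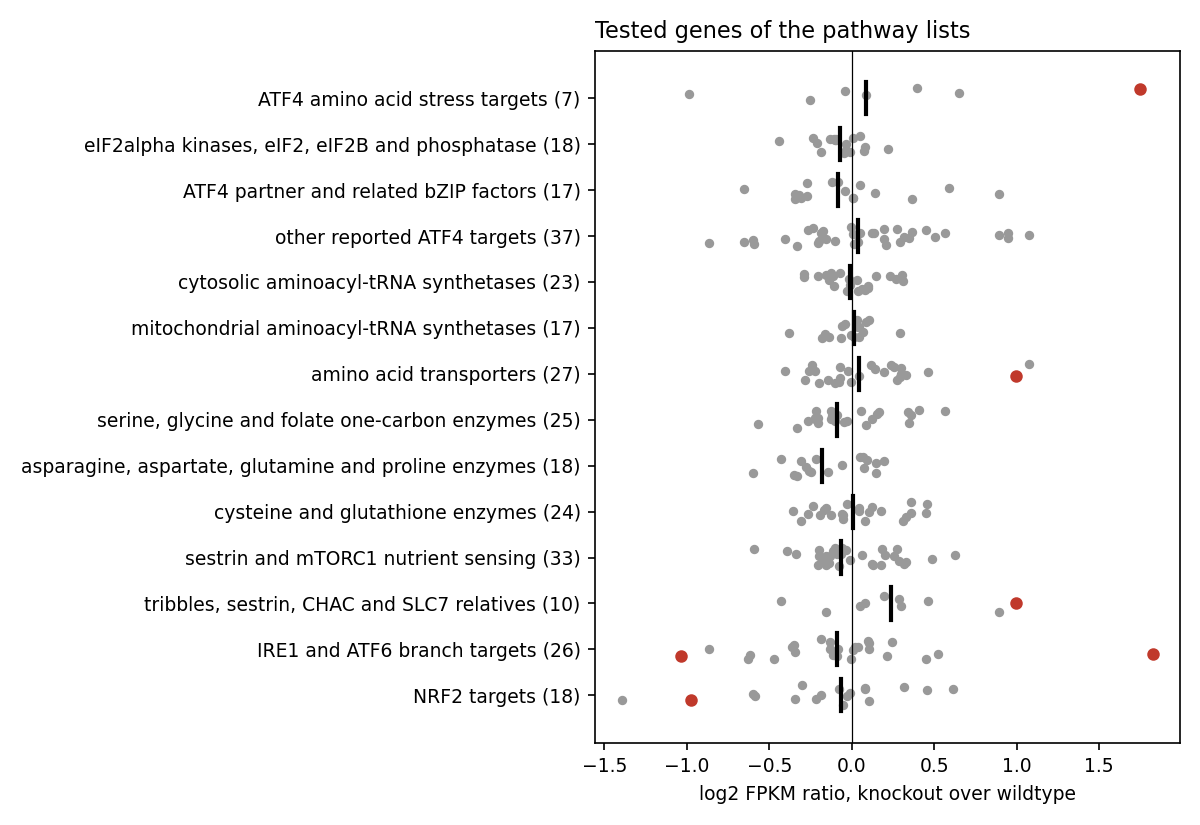
Log2 FPKM ratio of knockout over wildtype for each tested gene of the members and of the 13 pathway lists, with the number of tested genes in brackets, red points for q under 0.05 and a black bar at each median. The medians lie between -0.18 and 0.24, and the called genes are Chac1, Slc3a1 (in both lists that hold it), Derl3, Creld2 and Me1.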

How the data were processed

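Liver RNA of 3 knockout and 3 wildtype mice was sequenced as single-end reads of 50 nt on an Illumina instrument, per the labels' protocols. Bowtie2 and mm10 are named, with no version, per the submitters' processing notes; the quantifying program was not given in the sources used. The deposited table gives 1 value per group, and the unit of these values, FPKM, was inferred from the Cuffdiff layout, since the file headers do not name it. The deposited test statistic (a score) is a normal z, the deposited p-value follows from it, and the deposited q-value is its Benjamini-Hochberg adjustment over 11515 genes, both checked by recomputation. Per the file headers, the deposited log2 ratio has wildtype as its numerator, and its sign was changed here. Standard errors are the ratio divided by z, and 95% intervals assume a normal error. They are the authors' model errors and not a spread between mice measured here. Whether the authors' model took in such a spread is not known. Read depth is unknown. No replicate could be left out. A gene is called at a q under 0.05. Genes outside the members were named by rule: the called genes and the 2 with the smallest p of each list, and related genes above 1 FPKM; exceptions are marked, and a gene that the rule selects is not reported here. The members and lists were chosen with earlier results of these data known. With 2 values per gene, no likeness of pattern was computed. The scaling, quantile, filter and pseudocount alternatives used the same errors, and the adjustment was tested on simulated data. All 10 members matched a RefSeq promoter window of GRCm38.p6. Coordinates are those of the deposited table, with 1 added to each start. A short list of 95 differential genes was also deposited and holds 1 member, Chac1. Columns of samples outside the series numbered 0. Python 3.11.15, numpy, pandas, scipy and matplotlib were used.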

Additional observations from a re-analysis of the deposited data

How the results depend on the processing

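The count of 1 member higher and 0 lower was the same with FPKM totals of the groups made equal, after quantile normalization, with only genes of at least 1 FPKM in either group, and with q under 0.10. The median log2 ratio of the tested members moved to -0.11 with the group totals made equal and kept its sign under the other alternatives. That scaling lowers every ratio by the same amount by construction, and it turned the signs of Atf4 (-0.11), Asnsd1 (-0.15) and Chac2 (-0.11); over all tested genes it gave 140 lower calls in place of 58. With a pseudocount of 1 the Chac1 ratio was 1.34. In the IRE1 and ATF6 list 4 genes were lower under that scaling and 2 after quantile normalization, in place of 1. No paired analysis was possible because the deposited table holds 1 value per group, and for the same reason the planned leave-one-out alternative was not run. Depth being unknown, the 3 untested members cannot be compared between the groups.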

Other observations

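The branches of the unfolded protein response beside ATF4, run by IRE1 and ATF6, held calls in both directions. Of 26 tested genes 1 rose and 1 fell, with 11 ratios above 0, 15 below and a median log2 ratio of -0.09. Derl3, a protein of endoplasmic reticulum-associated degradation, rose to 5.64 FPKM in knockout livers, against 1.59 FPKM in wildtype livers (log2 ratio 1.83 ± 0.42, with a q of 0.00217 in the authors' deposited table), and Creld2, a disulfide isomerase of that compartment, fell to 26.5 FPKM in knockout livers, against 54.2 FPKM in wildtype livers. At an unadjusted p under 0.05 the authors' test held 2 higher and 4 lower genes. The higher one besides Derl3 was Pdia6, at 212 FPKM in knockout livers and 147 FPKM in wildtype livers (log2 ratio 0.52 ± 0.25). The lower ones besides Creld2 were Herpud1, given above, Hyou1, a chaperone, at 34.2 FPKM in knockout livers and 52.3 FPKM in wildtype livers, and Dnajb9, a co-chaperone, at 22.2 FPKM in knockout livers and 34.3 FPKM in wildtype livers. The chaperone Hspa5 (BiP) was at 327 FPKM in knockout livers and 421 FPKM in wildtype livers and did not pass. Pdia6, Hyou1, Dnajb9 and Hspa5 were named after their values were seen.

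The NRF2 list, which shares Slc7a11 with the ATF4 targets, had 18 tested genes, of which 0 rose and 1 fell, with a median log2 ratio of -0.07. Me1, malic enzyme, fell to 43.9 FPKM in knockout livers, against 86.3 FPKM in wildtype livers (log2 ratio -0.98 ± 0.23, with a q of 0.00423 in the authors' deposited table), and it also serves fatty acid synthesis. Osgin1, an oxidative stress-induced growth inhibitor, was at 99.9 FPKM in knockout livers and 65.2 FPKM in wildtype livers and did not pass.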
